A study of Homo sapiens with 8 samples.

Results

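The 8 genes of the CXCL chemokine cluster on human chromosome 4, CXCL8, CXCL6, CXCL1, PF4, PPBP, CXCL5, CXCL3 and CXCL2, were followed through the open chromatin around them, out of 20033 protein-coding genes analysed. A region, that is a stretch covered by overlapping peaks, was assigned to a gene when it overlapped the gene body or the 25 kb on either side. Merged over all peak lists, the 8 windows held 41 of 161291 regions. The windows formed 4 blocks with 298.021 kb in all, within a span of 408.678 kb (chr4:73715519-74124196, build hg38).

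ATAC-seq reads out accessible DNA through the cuts of a transposase and had been applied to U-937, an established monocytic line of acute myeloid leukaemia. The 4 groups were cells given the vehicle DMSO, all-trans retinoic acid (ATRA) at 0.1 µM, Corin at 0.1 µM, or ATRA and Corin together at 0.1 µM each (the combination), all for 24 h. ATRA is the ligand of the retinoic acid receptors, and Corin inhibits the demethylase and deacetylase activities of the CoREST co-repressor complex. There were 2 samples in a group and 8 altogether, and the labels do not say whether they came from separate cultures. The 2 samples of a group stood behind a single peak list, so replicate spread is missing from all values and the groups could not be tested against each other. The intervals given are 95% intervals for counting error alone.

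CXC chemokines are small secreted proteins that attract leukocytes. CXCL8, CXCL6, CXCL5, CXCL1, CXCL2, CXCL3 and the processed product of PPBP draw neutrophils through the receptor CXCR2, and CXCL8 and CXCL6 also through CXCR1, whereas PF4 lacks the short motif needed for this and is known as a platelet granule protein. In monocytes and macrophages the neutrophil-attracting members are rapidly induced by interleukin-1, tumour necrosis factor and microbial products, through NF-κB bound at short sites just upstream of the transcription start, with AP-1 and C/EBP factors acting beside it at CXCL8.

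The DMSO, ATRA, Corin and combination lists held 116563, 113914, 101851 and 94917 regions in the whole genome. The fold of a region, the authors' value for the summit of its strongest peak over the local background, had a median of 5.05, 7.61, 5.03 and 6.04 in the same order, so the lists differed as wholes. Read depth is not given. The summit counts, solved from the authors' fold and p, lay between 29 and 762 in the windows. Whether they count fragments, reads or cut sites is not given, and the intervals take them as independent counts. The lowest local background solved with the summit counts was 12.8, 9.12, 13.1 and 13.9 in the DMSO, ATRA, Corin and combination lists. The ATRA list thus had the highest median fold and the lowest such background, and a link between them was not tested. Of 6 myeloid genes used to check the cell type, 6 had a region within 1 kb of their start in every list. Of genes that mark other cell types, CD3E of T cells and ALB of hepatocytes had none in any list, GATA1 of erythroid cells had one with DMSO and Corin, EPCAM of epithelia with DMSO only, and COL1A1 of fibroblasts in all 4.

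The promoters of 7 members were found in the RefSeq promoter table (assembly GRCh38.p14); PF4 was not. The bases from 200 to 51 upstream of the start are shown for 6 of them because their shared NF-κB-type site goes with very different openness at the starts. Each is printed 5′ to 3′ on the gene's strand, with matches to the NF-κB-type motif GGNNTTTCC and the AP-1 motif TGANTCA, on either strand, in capitals. The stretches lie at chr4:73740369-73740518 (plus strand) for CXCL8, chr4:73836478-73836627 (plus) for CXCL6, chr4:73998728-73998877 (minus) for CXCL5, chr4:73869193-73869342 (plus) for CXCL1, chr4:74038740-74038889 (minus) for CXCL3 and chr4:74099246-74099395 (minus) for CXCL2. They lie upstream of the coding transcripts, and that of CXCL3 runs partly into the first exon of a longer CXCL3 transcript with no annotated coding sequence.
CXCL8: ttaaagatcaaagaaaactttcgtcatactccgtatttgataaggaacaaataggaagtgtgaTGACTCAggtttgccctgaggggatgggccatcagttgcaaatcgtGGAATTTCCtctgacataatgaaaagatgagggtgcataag
CXCL6: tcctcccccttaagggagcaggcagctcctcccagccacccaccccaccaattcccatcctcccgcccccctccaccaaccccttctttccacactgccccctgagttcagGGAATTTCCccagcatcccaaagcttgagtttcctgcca
CXCL5: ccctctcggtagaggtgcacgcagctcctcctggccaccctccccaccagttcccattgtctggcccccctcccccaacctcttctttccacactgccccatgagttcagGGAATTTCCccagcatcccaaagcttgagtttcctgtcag
CXCL1: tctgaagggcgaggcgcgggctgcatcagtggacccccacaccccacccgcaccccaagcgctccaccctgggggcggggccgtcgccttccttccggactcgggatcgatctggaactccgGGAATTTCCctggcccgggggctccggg
CXCL3: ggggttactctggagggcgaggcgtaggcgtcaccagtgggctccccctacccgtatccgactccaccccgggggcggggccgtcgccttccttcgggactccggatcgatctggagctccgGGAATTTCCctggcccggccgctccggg
CXCL2: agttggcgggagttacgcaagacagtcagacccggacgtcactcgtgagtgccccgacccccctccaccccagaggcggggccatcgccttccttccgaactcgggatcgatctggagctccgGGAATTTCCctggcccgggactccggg

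All 6 carried GGAATTTCC, beginning 91, 89, 90, 78, 78 and 77 bases upstream of the start in the order printed. The NF-κB-type motif was found in 6 of the 7 member promoters, PPBP being the other, and in 6.26% of 35116 promoters of the same 300 bases. Over the 250 bases upstream of the start, CXCL6 and CXCL5 were 85.3% identical, CXCL1 and CXCL3 81.4%, CXCL3 and CXCL2 73.4%, and CXCL1 and CXCL2 70.1%, while CXCL8 was at most 52.2% identical to any other (PPBP). CXCL1, CXCL3 and CXCL2 had a further match that runs past the end of the printed stretch. The AP-1 motif stood in the CXCL8 promoter alone among the 7, with its first base at position -137 from the start.

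Some of the genes had open chromatin at the start and others had none called. CXCL8, CXCL6, CXCL3 and CXCL2 had a region within 1 kb of the start in all 4 lists, PPBP in the ATRA list only, and CXCL1, CXCL5 and PF4 in none. That made 4, 5, 4 and 4 of 8 members in the DMSO, ATRA, Corin and combination lists, against 64.5%, 62.2%, 63.0% and 62.5% of coding genes. The pairs of most alike promoters were thus split, CXCL6 and CXCL3 being open and CXCL5 and CXCL1 not called. Regions nearest to the unmarked genes lay 3072 bp from CXCL1, 10318 bp from CXCL5 and 2877 bp from PF4. Of the 50-base stretches in the 1 kb around each start, the share also found elsewhere in the genome was 0.841% at CXCL1, 0% at CXCL5 and 4.21% at PF4. It was higher at the open starts of CXCL3 (14.2%) and CXCL2 (13.8%). The read length is not given, so the 50 bases are a choice made here. Whether reads could be placed at these starts was not tested.

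**Figure D1:**
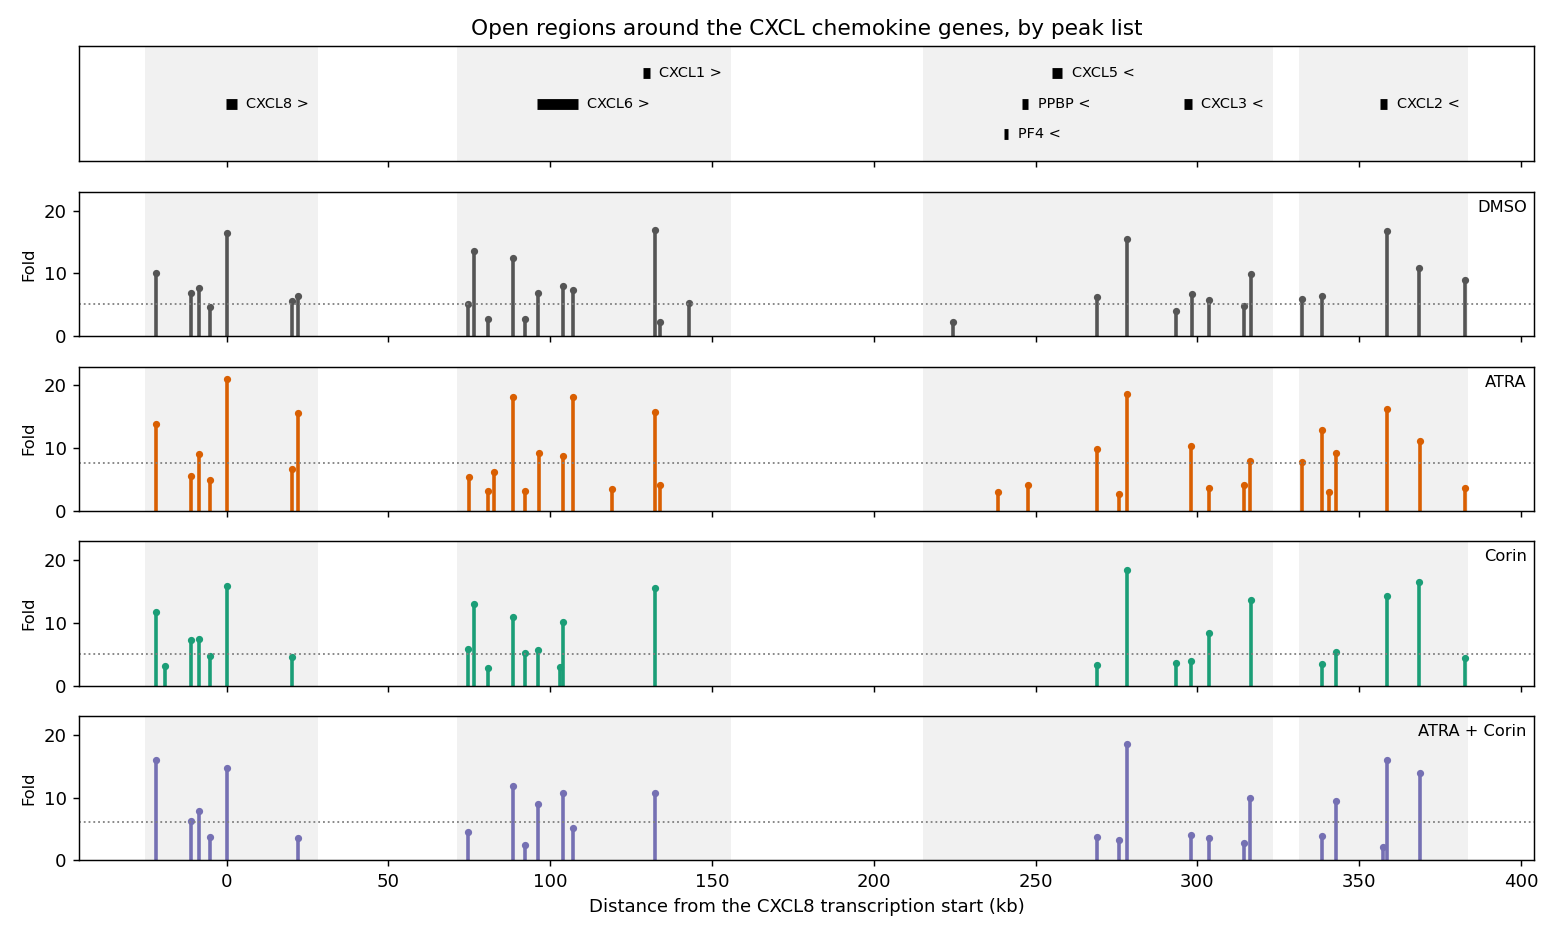
Open regions around the 8 genes in the 4 peak lists. The x axis is the distance from the CXCL8 start in kb, the y axis of each lower panel is the fold over local background, each stem is 1 region in that list at its summit, the dotted line is the median fold of all regions of that list, and grey bands mark the windows; the top panel shows the gene bodies, with > and < for the plus and minus strand. Stems stand at the starts of CXCL8, CXCL6, CXCL3 and CXCL2 in every list, and the stretch around PF4, PPBP and CXCL5 holds the fewest.

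CXCL8, the main neutrophil attractant of human monocytes (ENSG00000169429.12, chr4:73740519-73743716, plus strand), had its start in a region at chr4:73740341-73741623. Its fold was 16.4 with DMSO, 21.1 with ATRA, 15.9 with Corin and 14.7 with the combination, and 90.3%, 87.7%, 88.3% and 81.5% of the regions of these lists had a weaker p. The ATRA value was the highest and the combination's the lowest. In bulk cells, fewer open cells and less openness in each cell cannot be told apart. To compare folds between lists, each ratio was divided by the median ratio of regions of like mean fold, giving a centred ratio in which 1 is the level of regions of the same strength. On that scale CXCL8 was at 1.07 with ATRA over DMSO (interval 0.953 to 1.21), at 0.984 with Corin (0.876 to 1.1) and at 0.851 with the combination (0.755 to 0.961).

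CXCL2, a ligand of CXCR2 (ENSG00000081041.9, chr4:74097040-74099196, minus strand), had the start region with the highest summit counts, at chr4:74098561-74099827. Its fold was 16.8, 16.2, 14.3 and 15.9 with DMSO, ATRA, Corin and the combination. The 4 values were close, and the centred ratios over DMSO were 0.802 with ATRA (0.720 to 0.893), 0.866 with Corin (0.775 to 0.967) and 0.903 with the combination (0.816 to 1.0). The region held a further summit upstream of the start, with folds of 14.0, 14.8, 13.4 and 11.9 in the same order.

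CXCL6, which acts on both CXCR1 and CXCR2 (ENSG00000124875.10, chr4:73836640-73849064, plus strand), had its start region at chr4:73836228-73837512, with folds of 6.88, 9.26, 5.72 and 8.98. The lists with ATRA stood above those without it. Centred on regions of like strength, ATRA over DMSO was 1.01 (0.764 to 1.33) and the combination over Corin 1.43 (1.1 to 1.85). Its strongest summit moved over 396 bp between lists, and when summits were matched the centred log2 ratio of ATRA over DMSO was -0.39 in place of 0.01, so the direction at CXCL6 with ATRA alone depended on the summit read.

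CXCL3, another CXCR2 ligand (ENSG00000163734.4, chr4:74036589-74038807, minus strand), had its start region at chr4:74038290-74039206, with folds of 6.74, 10.4, 3.96 and 4.08. ATRA was the highest, and both lists with Corin were below DMSO with intervals that did not overlap that of DMSO (5.49 to 8.27 against 3.04 to 5.16 and 3.17 to 5.26). The centred ratio was 1.12 with ATRA (0.849 to 1.49), 0.693 with Corin (0.496 to 0.968) and 0.633 with the combination (0.457 to 0.876). It was the only one of the 4 constantly open starts to pass a centred ratio of 1.5 in either direction over DMSO, which it did downward with the combination.

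PPBP, precursor of a platelet-derived CXCR2 ligand (ENSG00000163736.4, chr4:73986439-73988190, minus strand), had a start region only in the ATRA list, at chr4:73988130-73988352. Its fold was 4.05 (2.97 to 5.52) from a summit count of 40, and 13.9% of the ATRA list was weaker, so the call was among the weak ones of its list. PF4 (ENSG00000163737.5, chr4:73980811-73982027, minus strand) had 1 region with a fold of 2.17 in its window with DMSO and 2 with ATRA, 1 of them the PPBP start and the other with a fold of 3.06, and none in the 2 lists with Corin. CXCL5 (ENSG00000163735.7, chr4:73995642-73998677, minus strand) and CXCL1 (ENSG00000163739.5, chr4:73869393-73871308, plus strand) had regions only at a distance.

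Counted over a whole window, CXCL8 had 9, 9, 9 and 6 regions in the DMSO, ATRA, Corin and combination lists, and CXCL6 had 9, 10, 9 and 7. CXCL1 had 5, 5, 2 and 3, CXCL5 had 2, 5, 2 and 3, and PPBP had 2, 3, 1 and 1. CXCL3 had 6, 7, 5 and 6, and CXCL2 had 5, 7, 5 and 5. The median coding gene had 7, 6, 6 and 5, so CXCL8 and CXCL6 lay above it in every list and CXCL1, PF4, PPBP and CXCL5 below it. Together the windows held 33, 37, 29 and 25 regions, some lying in the windows of neighbours. Merged over lists, 10 of the 41 belonged to 2 or more members.

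**Figure D2:**
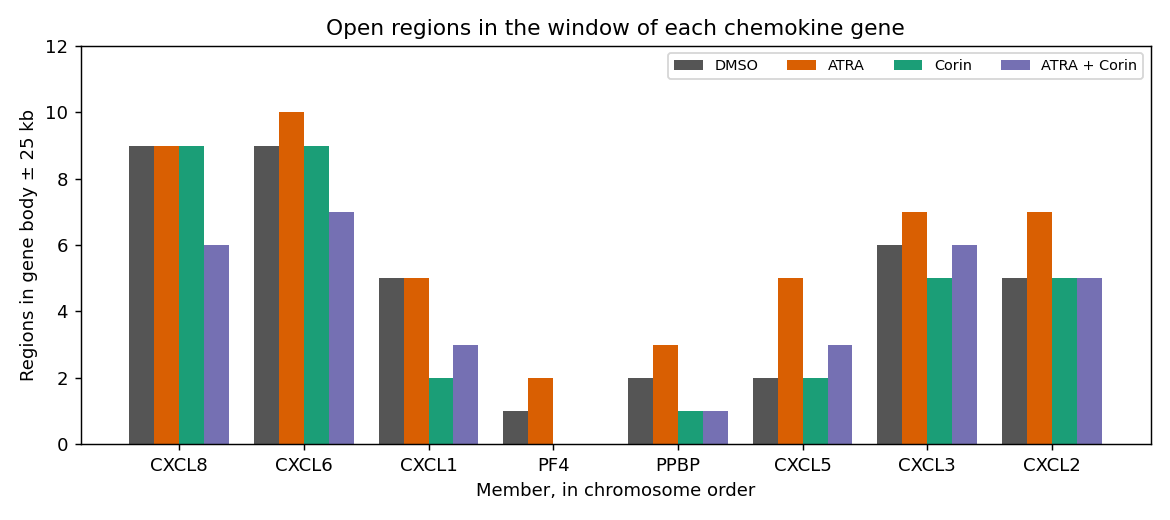
Number of regions in the window of each gene, by list. The x axis gives the 8 genes in chromosome order, the y axis the count of regions overlapping the gene body or 25 kb on either side, and each bar 1 list. CXCL8 and CXCL6 had the most with DMSO, ATRA and Corin, CXCL6 had the most with the combination, and PF4 had none with Corin or the combination.

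Of the 41 merged regions, 19 were present in all 4 lists (46.3%, Wilson interval 32.1% to 61.3%), against 41.1% of all merged regions, 7 were in 3 lists, 5 in 2 and 10 in 1. By annotation, 29 were intergenic, 9 lay within 1 kb of an annotated start, 2 were in introns and 1 in an exon. The strongest summits of the 19 shared regions lay within a median of 24 bp of each other, and in 14 of the 19 within 50 bp. Some strong distal regions were called with a high fold in all 4 lists. One 19.8 kb downstream of the CXCL3 start (chr4:74018585-74019304), also in the CXCL5 window, had 15.5, 18.6, 18.5 and 18.5. Another 3.62 kb downstream of the CXCL1 start (chr4:73872465-73873546) had 16.9, 15.7, 15.5 and 10.7, the combination being lowest, with a centred ratio of 0.600 over DMSO (0.503 to 0.716). Yet another, 7.55 kb upstream of CXCL6 (chr4:73828921-73829462), had 12.4, 18.1, 10.9 and 11.9. One 8.37 kb upstream of CXCL8 (chr4:73730681-73732761) had lower folds of 7.71, 9.08, 7.49 and 7.80.

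With ATRA alone, the highest ratios over DMSO were downstream of CXCL8, CXCL6, CXCL1 and CXCL2. The region 22 kb downstream of the CXCL8 start (chr4:73762237-73762892, intergenic) had a fold of 6.44 with DMSO, 15.6 with ATRA, no peak with Corin and 3.62 with the combination. ATRA stood far above the other lists there, with a centred ratio over DMSO of 1.86 (1.47 to 2.36). The region 11.1 kb downstream of the CXCL6 start (chr4:73847350-73848181), which covers the start of the pseudogene PPBPP1 inside the CXCL6 gene body, followed the same order, with 7.27, 18.1, no peak and 5.22. Its centred ratio was 1.90 (1.53 to 2.35). Next came a weak region 5.23 kb downstream of the CXCL1 start (chr4:73874293-73875089, intergenic), called with DMSO (2.26) and ATRA (4.09) only, with a centred ratio just short of 1.5 (1.07 to 2.11). A region 20 kb downstream of CXCL2 (chr4:74079060-74079413, intergenic) had 6.45, 12.8, 3.40 and 3.92, again highest with ATRA, with a centred ratio of 1.45 (1.12 to 1.89).

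Other regions were lower or uncalled with ATRA. The region 19.7 kb upstream of CXCL6 (chr4:73816506-73817551, intergenic) had a fold of 13.6 with DMSO and 13.1 with Corin and no peak in either list with ATRA, although 77.0% and 72.9% of the regions of the DMSO and Corin lists were weaker. The region 24.1 kb upstream of CXCL2, at the start of MTHFD2L (chr4:74123125-74123484), had 8.99 with DMSO, 3.66 with ATRA, 4.46 with Corin and no peak with the combination. Its centred ratio with ATRA was 0.307 (0.212 to 0.445), lower than in all but 0.353% of the regions called in both lists. A region 5.47 kb upstream of CXCL3 (chr4:74043927-74044429) had 5.80, 3.56, 8.35 and 3.62, low in both lists with ATRA, with a centred ratio over DMSO of 0.476 (0.320 to 0.709).

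Over all members, 7 of 37 regions of the ATRA list were absent from DMSO, against 23.1% of the whole list, and 4 of 33 regions of the DMSO list were absent from ATRA, against 25.3%. The gained regions were mostly weak. The strongest was 15.7 kb downstream of CXCL2 (chr4:74083020-74084076), with no peak under DMSO. Its folds were 9.27 with ATRA, 5.31 with Corin and 9.43 with the combination. Next came one 13.4 kb upstream of CXCL6 (chr4:73823133-73823379), called with ATRA only, with a fold of 6.13. The lost regions included that 19.7 kb upstream of CXCL6 and one 14.1 kb downstream of CXCL1, called with DMSO only (5.22). Another was 4.82 kb downstream of CXCL3, with 3.99 under DMSO and 3.54 under Corin. Of 27 regions called in both lists, 2 were higher by a centred ratio of 1.5 or more, against 15.6% of all such regions, and 5 were lower, against 9.7%. The median centred log2 ratio was -0.04, against 0 by construction over all regions. With lists cut to equal length, 3 regions were gained, 7 lost and 2 lower, and with the summit count in place of the fold 5 were higher and 3 lower, so neither direction outweighed the other under every setting.

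**Figure D3:**
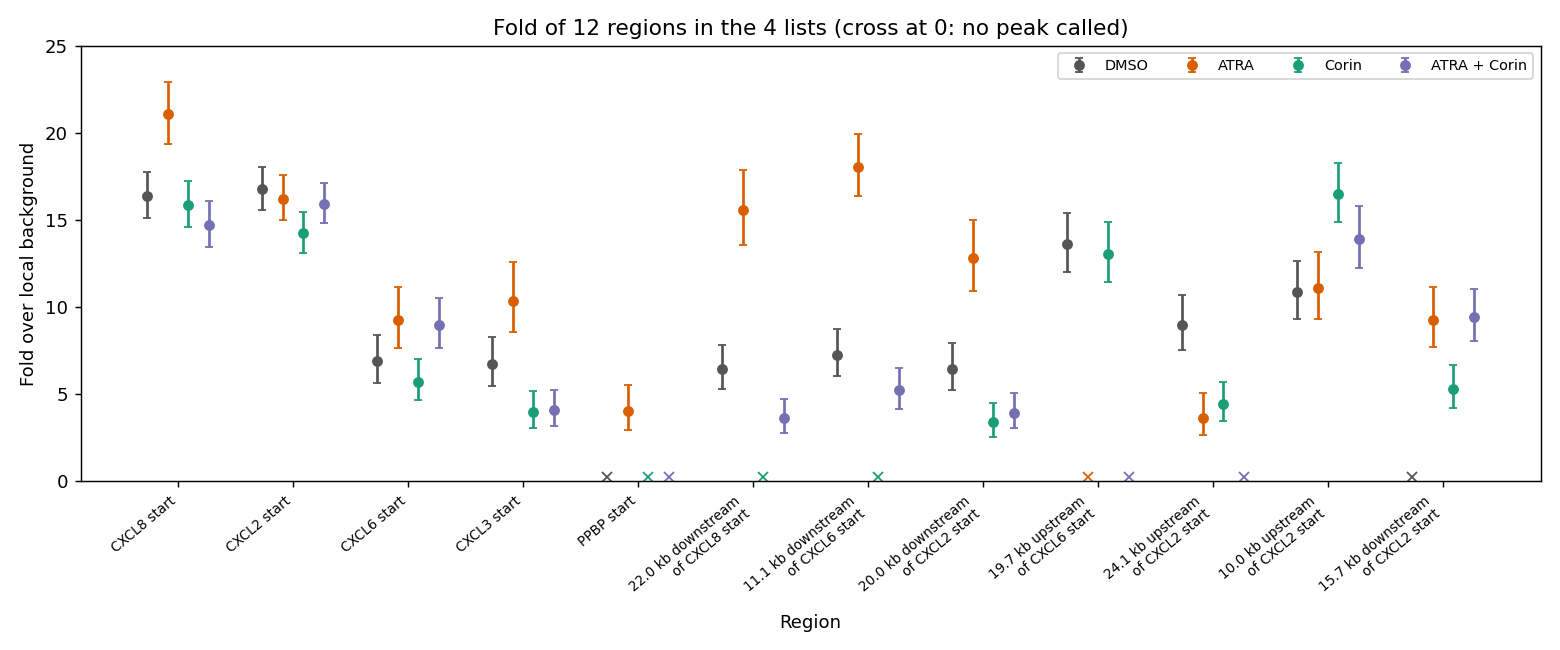
Fold of 12 regions in the 4 lists. The x axis names the region by the nearest start and the y axis is the fold over local background; points are the authors' value for the strongest peak, bars the 95% interval for counting error, and crosses at the bottom mark lists with no peak. The 3 regions downstream of CXCL8, CXCL6 and CXCL2 were highest with ATRA (15.6, 18.1 and 12.8), and the region 19.7 kb upstream of CXCL6 had peaks only with DMSO and Corin.

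With Corin alone, the highest ratios were at distal regions upstream of CXCL6, CXCL3 and CXCL2. The region 3.96 kb upstream of CXCL6 (chr4:73832459-73833134) had 2.76, 3.16, 5.20 and 2.39 with DMSO, ATRA, Corin and the combination. Corin stood above the rest, with a centred ratio over DMSO of 2.21 (1.57 to 3.13). The region 5.47 kb upstream of CXCL3 named above was also highest with Corin, with a ratio of 1.57 (1.18 to 2.08). The region 10.0 kb upstream of CXCL2 (chr4:74108743-74109864, intergenic) had 10.9, 11.1, 16.5 and 13.9, with ratios over DMSO of 1.55 with Corin (1.29 to 1.87) and 0.778 with ATRA (0.617 to 0.980).

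Lower values with Corin were found at several regions named for ATRA, and both sets of ratios share the DMSO list. The regions 22 kb downstream of CXCL8 and 11.1 kb downstream of CXCL6 were not called with Corin, and the one 20 kb downstream of CXCL2 had a centred ratio of 0.621 (0.436 to 0.885). The region 10.8 kb upstream of CXCL5 (chr4:74008995-74009745), the nearest to that gene, had 6.16, 9.79, 3.32 and 3.75, and a centred ratio with Corin of 0.637 (0.445 to 0.913). The MTHFD2L start was at 0.555 (0.409 to 0.754). In all, 3 of 24 regions were higher with Corin, against 7.71% of all regions in both lists, and 3 were lower, against 8.64%. Of the Corin list, 3 of 29 regions were absent from DMSO, against 17.7%, and 7 of 33 DMSO regions were absent from Corin, against 28.5%. The 3 gained were the one 15.7 kb downstream of CXCL2 and weak ones 18.9 kb upstream of CXCL8, with a fold of 3.04, and in an intron of CXCL6, with 2.90. Measured by summit counts, 6 regions were higher and 1 lower.

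The combination list had fewer regions in the windows than the DMSO list (25 against 33), as it had in the whole genome (94917 against 116563). By fold, more of the regions called in both lists were lower than higher. Of 33 DMSO regions, 9 were absent from the combination, against 31.5% of the whole list, and 3 of 25 combination regions were absent from DMSO, against 16.7%. The lost regions included those 19.7 kb upstream of CXCL6, 24.1 kb upstream of CXCL2 and 26.3 kb downstream of the CXCL2 start, the last with folds of 5.87 with DMSO and 7.71 with ATRA only. The gained ones were that 15.7 kb downstream of CXCL2, a weak one in an exon of CXCL2 with a fold of 2.10, and that 17.6 kb upstream of CXCL5, with 2.61 under ATRA and 3.30 under the combination. Of 22 regions called in both lists, 7 were lower by 1.5 or more, against 11% of all, and 1 was higher, against 9.13%. The 7 lay near CXCL8, CXCL1, CXCL5, CXCL3 (3 regions, its start among them) and CXCL2, and 5 of the 22 had a centred ratio above 1. The higher one, 21.7 kb upstream of CXCL8 (chr4:73717998-73719380), had folds of 10.0, 13.9, 11.7 and 16 and a ratio of 1.52 (1.24 to 1.86). With summit counts 2 regions were lower and 2 higher, so the excess of lower values held for the fold and not for the summit counts.

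For the combination over ATRA, the lowest ratios stood at the regions that were highest with ATRA alone; both ratios use the ATRA list. At the regions 22 kb downstream of CXCL8, 11.1 kb downstream of CXCL6 and 20 kb downstream of CXCL2, the centred ratios of the combination over ATRA were 0.329 (0.243 to 0.445), 0.377 (0.295 to 0.482) and 0.435 (0.323 to 0.587). They were lower than in all but 0.949%, 1.91% and 3.47% of regions called in both lists. The start of CXCL3 (0.588, 0.428 to 0.808) and the region 10.8 kb upstream of CXCL5 (0.573, 0.412 to 0.797) were the remaining 2 of the 5 lower regions among 24, against 15.7% of all. Another 4 were higher, against 9.28%. Among them were the regions 18.3 kb upstream of CXCL3 (1.66, 1.26 to 2.18) and 10.0 kb upstream of CXCL2 (1.55, 1.25 to 1.93), one in an intron of CXCL6, 7.88 kb from its start, at 1.61 (1.3 to 1.98), and one 10.8 kb upstream of CXCL8 at 1.66. The last has no interval because its p and fold in the combination list contradict each other. At the CXCL6 intron the summit counts gave a centred log2 ratio of -0.030 in place of 0.68. Of 37 ATRA regions, 10 were absent from the combination, against 28.4%, and 1 of 25 combination regions was absent from ATRA, against 15.5%; with lists of equal length these counts were 4 and 5.

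For the combination over Corin, the lowest ratios stood upstream of CXCL6 and CXCL3. The combination over Corin was 0.435 at the region 3.96 kb upstream of CXCL6 (0.309 to 0.613) and 0.389 at that 5.47 kb upstream of CXCL3 (0.282 to 0.539), the regions with the highest ratios of Corin over DMSO; both ratios use the Corin list. It was 0.637 at the region 3.62 kb downstream of CXCL1 (0.527 to 0.770). The region 15.7 kb downstream of CXCL2 was higher, at 1.61 (1.22 to 2.13). These were the 3 lower regions of 20, against 9.1% of all, and the 1 higher, against 9.37%; with summit counts 6 were lower. Of 25 combination regions, 5 were absent from Corin, against 20.6%, and 7 of 29 Corin regions were absent from the combination, against 25%.

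**Figure D4:**
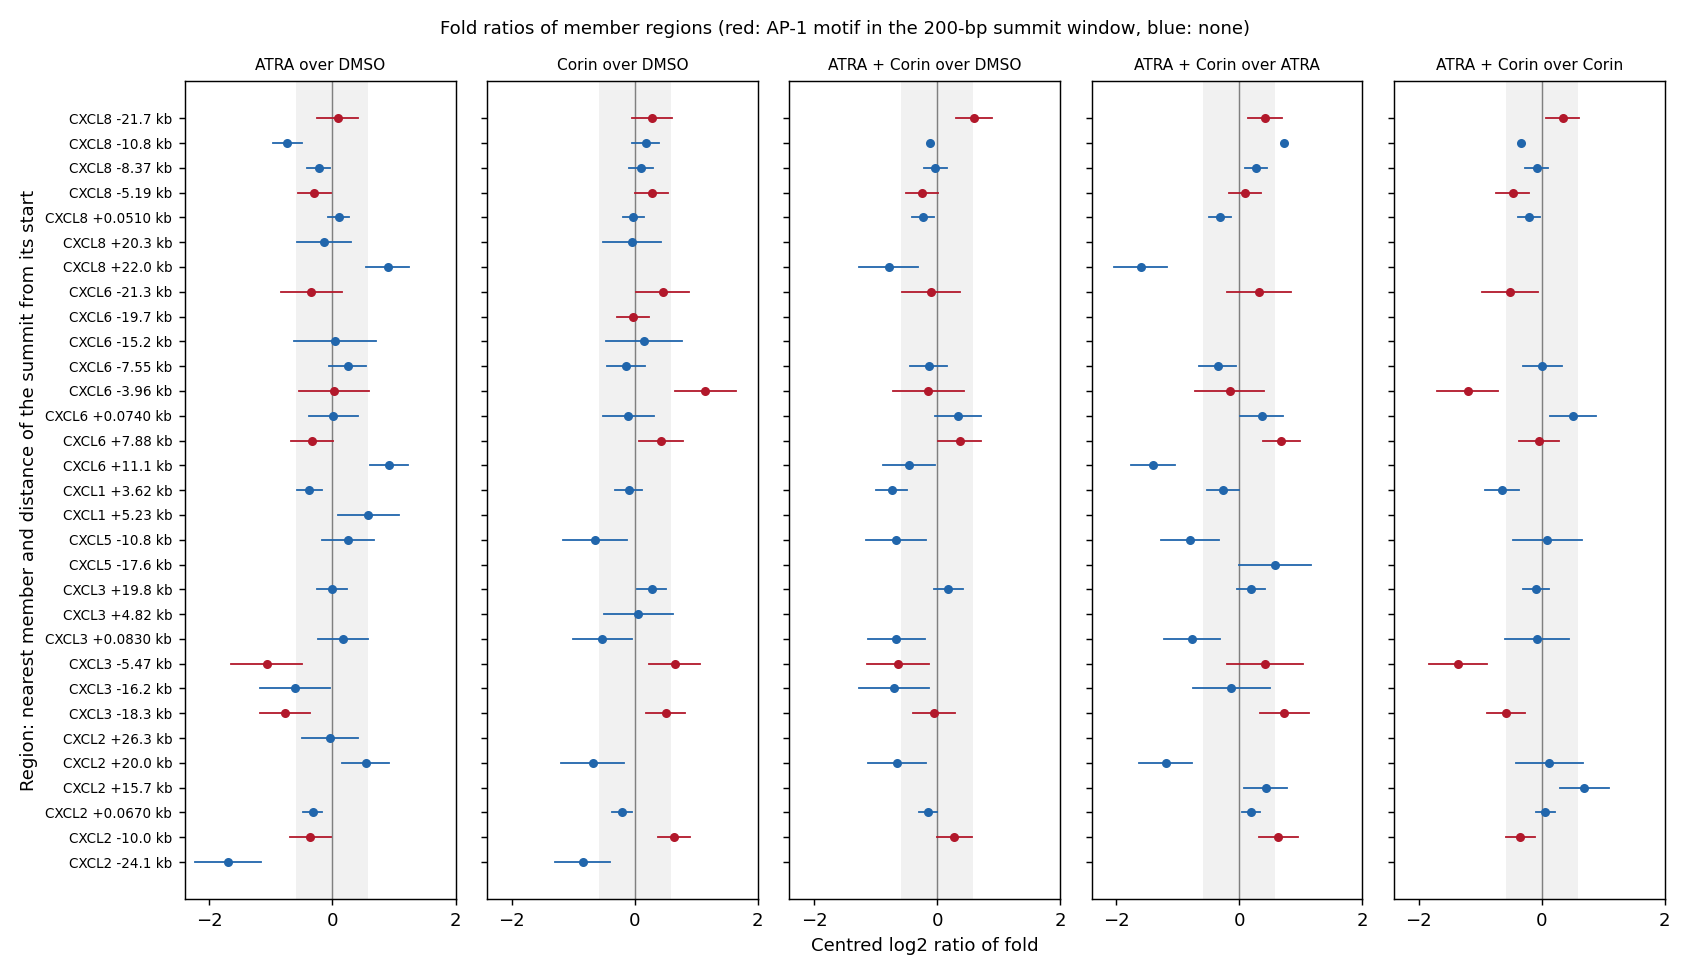
Centred log2 ratio of fold for each region called in both lists of a pair, 1 panel a pair. Rows are regions, named by the nearest gene start and the distance of the summit from it in kb (minus for upstream), the x axis is the centred log2 ratio, bars are 95% intervals for counting error (the region 10.8 kb upstream of CXCL8 has none in the 3 panels with the combination), the grey band marks ratios within 1.5, and red points have an AP-1 motif in the 200 bp around the summit. The summit searched was that of the list with the highest −log10 p. Red points lie mostly right of 0 for Corin over DMSO (8 of 9) and left of 0 for the combination over Corin (7 of 8). Both panels use the Corin list, so a value high with Corin moves them in opposite directions.

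The sequences around the summits of 5 distal regions are shown because these regions were among those that differed most between lists. Each line gives 120 bases of the plus strand of hg38 centred on the summit, 5′ to 3′, with matches to AP-1 (TGANTCA), NF-κB-type (GGNNTTTCC), C/EBP (TTGCNNAA) and PU.1 (GAGGAAGT) motifs on either strand in capitals. The first was uncalled with ATRA and the next high with Corin, at chr4:73816931-73817050 and chr4:74109149-74109268. The next 2 were high with ATRA, at chr4:73762514-73762633 and chr4:74079161-74079280. The last, at chr4:74083476-74083595, was called with every treatment (9.27 with ATRA, 5.31 with Corin, 9.43 with the combination) and not with DMSO. All were picked after the values were seen. Regions with an AP-1 match called in a single list are not shown. They lie 13.4 kb upstream of CXCL6 (ATRA only), 14.1 kb downstream of CXCL1 (DMSO only) and in a CXCL6 intron (Corin only).
19.7 kb upstream of CXCL6: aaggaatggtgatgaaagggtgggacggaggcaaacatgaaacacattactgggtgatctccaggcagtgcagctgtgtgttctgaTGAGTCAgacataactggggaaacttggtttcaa
10.0 kb upstream of CXCL2: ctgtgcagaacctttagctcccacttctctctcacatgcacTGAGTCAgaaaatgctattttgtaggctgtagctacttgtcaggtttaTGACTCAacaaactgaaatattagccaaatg
22 kb downstream of CXCL8: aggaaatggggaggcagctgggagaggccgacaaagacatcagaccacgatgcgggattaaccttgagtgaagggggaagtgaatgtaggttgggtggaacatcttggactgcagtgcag
20 kb downstream of CXCL2: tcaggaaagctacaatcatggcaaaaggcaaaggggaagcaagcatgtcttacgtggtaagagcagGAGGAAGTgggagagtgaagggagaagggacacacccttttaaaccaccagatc
15.7 kb downstream of CXCL2: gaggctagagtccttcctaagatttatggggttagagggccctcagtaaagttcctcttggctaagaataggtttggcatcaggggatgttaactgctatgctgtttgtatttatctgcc

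The pattern TGANTCA was searched for AP-1 factors (FOS and JUN families) and allows any base in its middle. The region 21.3 kb upstream of CXCL6 matched as TGATTCA. In the 200 bp around the summit the pattern was present in 12 of the 41 regions (29.3%), against 12.2% of all 161291. That summit was taken from the list with the highest −log10 p. A region strongest with Corin was thus searched at its Corin summit, so the motif classes and the ratios do not come from separate data. Among regions with the motif, 8 of 9 had a centred ratio of Corin over DMSO above 1, with a median log2 of 0.45. Among those without it 5 of 15 did, with a median of -0.10, against 45.7% of all regions without it. Over all regions with the motif, searched at summits picked in the same way, the share above 1 was 74.4%. This direction was therefore that of the genome and not particular to the cluster. With ATRA over DMSO, 2 of 8 regions with the motif were above 1, with a median log2 of -0.34 (37.8% of all regions with it). Without the motif 10 of 19 were (51.7% of all regions without it). For the combination over Corin it was 1 of 8 with the motif, with a median of -0.50 (24.6% of all), and 6 of 12 without it (54.2%). For the combination over ATRA it was 7 of 8 with the motif, with a median of 0.42 (60.5% of all), and 7 of 16 without it (48.5%). Ratios that share the Corin or the ATRA list are linked. A high value in the shared list raises its ratio over DMSO and lowers the combination's ratio over it. For the combination over DMSO it was 3 of 8 with the motif, with a median of -0.07 (45.5% of all). Without the motif it was 2 of 14, against 50.7% of all regions without it, so most member regions lay below 1 with and without it.

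The other motifs were searched in the same 200 bp around the summit, and sites elsewhere in a region are not counted. There C/EBP was found in 9 of 41 regions (22.0%, against 14.5% of all), PU.1 in 4 (9.76%, against 6.73%) and the NF-κB type in 1 (2.44%, against 3.51%). The GGAATTTCC sites upstream of CXCL8, CXCL6, CXCL3 and CXCL2 lie within their start regions but outside these 200 bp. The same holds for the AP-1 match upstream of CXCL8, whose start region was counted as without the motif. The direct repeat of AGGTCA with a spacer of 5 bases, bound by retinoic acid receptors, was found around the summits of 0 of 41 and 0.018% of all regions. A match describes the letters alone.

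At 2 regions with an AP-1 match near the DMSO summit, the strongest summit lay elsewhere in both lists with ATRA. These 2 were picked after the values were seen. In the region 18.3 kb upstream of CXCL3 (chr4:74056193-74057524), the strongest summit was at position 74057026 with DMSO (fold 9.86) and 74057021 with Corin (13.6), near an AP-1 match at chr4:74056975-74056981. It was at 74056725 with ATRA (7.91) and 74056720 with the combination (9.91). In the region 3.96 kb upstream of CXCL6 it was at 73832708 with DMSO and 73832718 with Corin, near an AP-1 match at chr4:73832742-73832748, and at 73832929 and 73832942 in the 2 lists with ATRA. In both regions the lists with ATRA also had a peak at the first place, with a lower fold. It was 7.12 and 8.30 upstream of CXCL3, and 2.22 and 2.21 upstream of CXCL6. The intervals of the strongest summit with ATRA and the combination were 6.34 to 9.86 and 8.43 to 11.6 upstream of CXCL3. Upstream of CXCL6 they were 2.41 to 4.13 and 1.81 to 3.16. The 7.12 and the 2.21 thus lay within the interval, and the 8.30 and the 2.22 below it. At the other place DMSO had folds of 6.52 upstream of CXCL3 and 2.60 upstream of CXCL6, the latter close to the 2.76 of its strongest summit, and Corin had 6.30 upstream of CXCL3 and no summit upstream of CXCL6. Shifts were not confined to such regions. One 16.2 kb upstream of CXCL3, with no AP-1 match in its 200 bp, had its strongest summit at 74054858 with DMSO. It was at 74054943 with ATRA and 74054950 with the combination. The CXCL6 start differed with ATRA (73837148) from DMSO (73836783).

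Other genes of the pathway were read from a list of 23. A region within 1 kb of the start was found at 18, 18, 17 and 18 of them with DMSO, ATRA, Corin and the combination. The shares of all coding genes were 64.5%, 62.2%, 63.0% and 62.5%, and no difference was tested. All 10 NF-κB factors and feedback inhibitors had one in every list. The folds that follow were not centred, and the median fold of all regions was 5.05 with DMSO and 7.61 with ATRA. Of the receptors, CXCR2 had folds of 15, 17.8, 13.4 and 16.2 and CXCR1 4.83, 9.50, 8.75 and 8.07, with DMSO lowest, while the decoy receptor ACKR1 had weak calls with DMSO (2.23) and the combination (1.74) only. Of the inducing cytokines, IL1B and TNF were open in all 4 lists and IL1A with ATRA only, with a fold of 2.80. Among 7 further CXC chemokines, 3 had a start region in every list. CXCL10, an interferon-induced attractant of T cells, had 4.32, 8.58, 2.81 and 3.67, highest with ATRA, and the related CXCL11 had 14.1, 21, 18 and 19.5. CXCL16, a membrane-bound chemokine, had 3.88, 6.35, 4.27 and 5.26. No region was called at the starts of PF4V1, which lies inside the cluster, CXCL9, CXCL12 or CXCL13.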

How the data were processed

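The data were 4 deposited peak lists in narrowPeak form, 1 for each group; the authors had pooled the 2 samples of a group, and no values of single samples were used. Per the submitters' processing notes, the build was hg38 and cutadapt, Bowtie2, SAMtools, Picard and MACS2 were used, with no version, role or setting given in the sources used here. In the deposited lists the fold column is a ratio of the summit over its local background, p and q are given as −log10, the score column is a display value that was not used here, and the last column is the distance in bp from the peak's start to its summit, an unnormalized position. These values are the authors'.

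Within a list, peaks that overlap became 1 region, with the highest fold of the region as its value, and regions overlapping by at least 1 bp were merged over lists. Gene bodies and starts came from GENCODE release 44. No peak end on the 24 chromosomes lay beyond its hg38 length. For each of the 5 pairs of lists, the log2 ratio of folds was centred on the median of its bin among 20 bins of mean fold. Summit counts were solved from p and fold, taking p as a Poisson probability, which succeeded for 116 of 117 values in the windows, within 0.05; intervals come from these counts. The steps were tested on simulated data with 200 changed regions, and overlaps were checked against bedtools 2.31.1, with the same number in 10 of 10 comparisons. Python 3.11.15, numpy 2.4.6, pandas 2.3.3, scipy 1.17.1, Biopython 1.88 and matplotlib 3.10.9 were used.

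The regions named were those at member starts, the 3 with the highest −log10 p in each window, up to 3 gained and 3 lost with each treatment, and the 3 highest and 3 lowest centred ratios of each pair. Members, gene lists, motifs and regions were chosen with earlier results of these data known. Alternatives were a −log10 q of at least 5, lists of equal length, merging within 150 bp, windows of 10 and 50 kb, an overlap of 50%, no region within 500 bp, centring without bins, folds at summits matched within 100 bp, a ratio of 2 and, added after seeing the data, the summit count in place of the fold. Of the marker genes and sequences that were examined, 2 items are not reported here.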

Additional observations from a re-analysis of the deposited data

How the results depend on the processing

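No value here can be set against a spread between samples, because each group had a single list. No paired analysis was possible because the lists carry no replicate numbers, and for the same reason no replicate could be left out. A −log10 q of at least 5, merging within 150 bp, an overlap of 50%, centring without bins and matched summits left every count over the members within 1.5 times its value. A region 10.8 kb upstream of CXCL8 has a p and a fold that contradict each other in the combination list and was left out of the summit counts. Depth is not given and the solved backgrounds differed between lists, so a region not called in a list may have been missed. The lists are also named as naive overlap and filtered, steps that the sources used here do not describe. Whether an uncalled region had peaks that failed these steps was not tested.

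With lists of equal length, 3 ATRA regions were absent from DMSO, 7 DMSO regions absent from ATRA, 5 combination regions absent from ATRA and 4 ATRA regions absent from the combination, and 2 regions were lower with ATRA over DMSO. The lists were then shortened by their weakest regions. With no region within 500 bp required, 0 combination regions were absent from ATRA.

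Windows of 10 kb held 16, 19, 16 and 14 regions with DMSO, ATRA, Corin and the combination. The regions absent from DMSO were then 3 of ATRA, 1 of Corin and 1 of the combination, the DMSO regions not called were 1 with ATRA, 2 with Corin and 2 with the combination, and there were 4 ATRA and 2 Corin regions absent from the combination and 2 combination regions absent from Corin. Past 1.5, 1 was higher and 1 lower with ATRA over DMSO, 0 lower with Corin, 0 higher and 3 lower with the combination, 2 higher and 2 lower for the combination over ATRA, and 0 higher over Corin. Windows of 50 kb gave 8 combination regions absent from Corin, 4 higher with ATRA, 5 lower with Corin, 2 higher with the combination, 8 lower for the combination over ATRA and 2 higher over Corin. Smaller and larger windows hold fewer and more regions by construction.

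With a ratio of 2, 0 were higher and 2 lower with ATRA over DMSO, 1 higher and 0 lower with Corin, 0 higher and 0 lower with the combination, 0 higher and 3 lower for the combination over ATRA, and 0 higher over Corin. With the summit count in place of the fold, chosen after seeing the data, 5 were higher and 3 lower with ATRA, 6 higher and 1 lower with Corin, 2 higher and 2 lower with the combination, and 6 lower for the combination over Corin; the cause was not tested. The centred log2 ratio of the combination over ATRA at the CXCL6 intron region, 7.88 kb from the start, was then -0.030, against 0.68 by fold, a reversal whose cause was not tested. Of the 95 centred ratios recomputed from summit counts, 21 more moved beyond their counting interval and 73 did not, and with matched summits 2 moved, both at the CXCL6 start.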

Other observations

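Between the windows of the chemokine genes lay 4 further regions, which the 25 kb limit leaves out. Their folds were not centred, and the lists differed in median fold as wholes. The strongest, between CXCL8 and CXCL6 (chr4:73770272-73771355, intergenic), had a fold of 8.62 with DMSO, 19.2 with ATRA, 4.17 with Corin and 8.44 with the combination. ATRA was again the highest and Corin the lowest, the same order as at the region 22 kb downstream of CXCL8. A region nearer to CXCL6 (chr4:73802040-73803510) had 4.42 with DMSO and 2.41 with Corin, and a region between CXCL1 and PF4 (chr4:73917221-73917675) had 3.04 and 3.32 in the same lists, with no peak in either list with ATRA. The fourth, also between CXCL1 and PF4 (chr4:73923176-73923580), was called with ATRA only, with a fold of 2.57.

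Upstream of the cluster, beyond the CXCL8 window, a region at chr4:73689985-73690788 had peaks only in the lists with ATRA, with folds of 11.8 with ATRA and 5.36 with the combination. Its neighbour at chr4:73698210-73699008 had 6.52 with DMSO, 12.7 with ATRA and 6.36 with the combination, and no peak with Corin. These 2 were chosen after their values were seen, their folds were not centred, and no difference was tested.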
